A study of Mus musculus with 2 samples.

Results

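The interferon response and MHC class I genes examined here were 39 named genes, found by their GENCODE symbol among the 35275 genes of the count table. All 39 were present, and 37 reached 10 reads when both libraries were summed. They were grouped by role into 5 sensors of foreign nucleic acid and their adaptors, 4 interferon receptor chains, 6 transcription factors, 18 effector genes that interferon induces, and 6 genes of class I antigen presentation. RNAseq compared untreated AML12 cells (labelled Young, here control) with the same cells after repeated hydrogen peroxide (labelled Old, here senescent). AML12 is a mouse hepatocyte line, labelled as liver of a male CD-1 mouse of 3 months, and it was grown in serum with dexamethasone, a glucocorticoid, in either condition. Peroxide was given in serum-free medium for 1 h a day on 6 days, first at 1 mM and then at 0.75 mM. Each exposure was followed by 23 h of recovery in the medium with serum and dexamethasone. Whether control cells also spent these hours without serum is not given in the sources used here. Each condition was 1 library, made from RNA of 3 pooled samples of 1 cell line. Hence differences could not be checked against replicates and carry no p-value, and every ratio given compares these 2 libraries rather than the conditions.

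Interferons are secreted proteins that warn cells of infection. Sensors such as RIG-I, MDA5 and STING detect foreign or misplaced nucleic acid and switch on interferon genes. Type I interferon binds IFNAR and interferon gamma binds IFNGR, and their kinases activate STAT proteins, which with IRF9 bind the interferon-stimulated response element (ISRE) or, as a STAT dimer, the gamma-activated site (GAS). The induced genes encode antiviral proteins and the parts of the class I pathway, in which peptides are cut by the proteasome, pumped into the endoplasmic reticulum by TAP and loaded on a heavy chain paired with beta-2 microglobulin. Hepatocytes carry both receptor types, and class I on their surface is raised by interferon and by NF-κB.

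Promoter sequence was available for 31 of the 39 genes, as windows from 250 bases before to 50 bases after each RefSeq start (GRCm38.p6). The ISRE core, searched as GAAANNGAAA on both strands, was present for 12 of these 31 genes (38.7%) and for 3.99% of all 27025 genes with a window. The GAS letters TTCNNNGAA were present for 9 of the 31 (29.0%) against 9.55% of all genes, and a κB-type motif, GGGNNTTCC or GGGNNNTTCC on either strand, for 7 (22.6%) against 11.0%. In Bst2 the κB, GAS and ISRE matches overlap in turn, and the κB and GAS matches of Ifit2 overlap too. A match is a run of letters and was not read as a bound site. The stretches below lie before the start of their gene and show the ISRE cores of effector genes, Stat2 and B2m, the GAS of Irf1, and the κB letters that the 2 heavy chain genes share. Capitals mark the match, and the strand is that of the gene.

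Isg15, ISRE core, chr4:156200863-156200908, minus strand: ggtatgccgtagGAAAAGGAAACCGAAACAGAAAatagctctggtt
Ifit1, ISRE core, chr19:34640773-34640825, plus strand: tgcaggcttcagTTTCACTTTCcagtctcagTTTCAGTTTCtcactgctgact
Ifit3, ISRE core, chr19:34583361-34583428, plus strand: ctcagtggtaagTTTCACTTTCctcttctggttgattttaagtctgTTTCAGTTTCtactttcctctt
Rsad2, ISRE core, chr12:26456551-26456584, minus strand: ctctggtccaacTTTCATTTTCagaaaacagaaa
Stat2, ISRE core, chr10:128270264-128270297, plus strand: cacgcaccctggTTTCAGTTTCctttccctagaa
B2m, ISRE core, chr2:122147536-122147569, plus strand: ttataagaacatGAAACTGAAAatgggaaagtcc
Irf1, GAS, chr11:53769912-53769944, plus strand: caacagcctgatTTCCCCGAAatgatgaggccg
H2-K1, κB-type, chr17:34000438-34000470, minus strand: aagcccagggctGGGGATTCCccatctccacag
H2-D1, κB-type, chr17:35262911-35262943, plus strand: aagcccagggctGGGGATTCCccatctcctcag

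The stretches of H2-K1 and H2-D1, each 33 bases long, differ at 1 base, A30T, counted from the first base shown with the H2-K1 base first. Isg15 holds 3 overlapping cores in tandem, and Ifit1 and Ifit3 hold 2 each.

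The control library held 28021941 counted reads and the senescent library 25738075. Reads were scaled by edgeR's TMM method, and 1 read was added to each gene in proportion to library size before the log2 ratio of senescent over control was taken. The 95% interval given with a ratio is a Clopper-Pearson interval of the gene's reads. It covers counting error only, since each condition was 1 library. It also treats every read as a separate molecule, which reads copied by PCR and counted without molecular identifiers are not. Scaling by total counts moved the median of all genes by -0.11, the largest shift among the scalings tried. Hepatocyte markers were mixed: Alb, which encodes albumin, had 32076 control and 2917 senescent reads, while Hnf4a, a hepatocyte transcription factor, had 8187 and 7705. Of the 10 hepatocyte markers 2 were lower past log2 1.5, against 5.6% of all genes with at least 10 reads. The keratin gene Krt8 had the most reads, 119403 and 144783. Among markers of cells that carry strong interferon programs, Adgre1, Clec4f and Marco of macrophages were at 0 reads in both libraries, and the 8 lymphocyte markers summed to 5 control and 3 senescent reads. The 6 endothelial markers summed to 6 and 14 reads, and the 8 of fibroblasts and stellate cells to 27 and 9. Of the 4 macrophage markers with at least 10 reads, 2 were higher past log2 1.5, against 2.71% of all genes with as many reads. These were Ptprc (27 and 76 reads, ratio 1.68) and Csf1r (15 and 40, ratio 1.58). Cd68 had 34 and 40 reads and Cd14 5551 and 1879 (ratio -1.33). The sum of all 9 macrophage markers, most of it Cd14, was 5630 and 2038 reads. The part of such cells in the ratios was not tested.

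A gene was called when its ratio passed log2 1.5, the study's threshold, with an interval without 0. At this threshold 2 of the 39 genes were lower in senescent cells, Tap2 and Parp14, and 0 were higher, against 5.6% of the 14383 tested genes called lower and 2.71% called higher. With a threshold of log2 1, 6 genes were lower, namely Tap2, Parp14, H2-K1, Tapbp, Tmem173 and Irf1. That is set against 9.98% of all tested genes called lower, and the 1 member that was higher, Ifit3, against 5.09%. The median ratio of the 37 tested genes was -0.34, beside -0.015 for all tested genes. By sign, 25 were below 0 and 12 above, beside 7345 and 7038 of the 14383 tested genes. The interval lay wholly below 0 for 19 genes and wholly above 0 for 4, and it held 0 for 14. Over all tested genes these counts were 4977, 4888 and 4518. Scaling by total counts turned the sign of Dhx58, Irf2 and Eif2ak2, whose intervals held 0, and brought H2-K1, Tapbp and Tmem173 past the study's threshold.

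**Figure D1:**
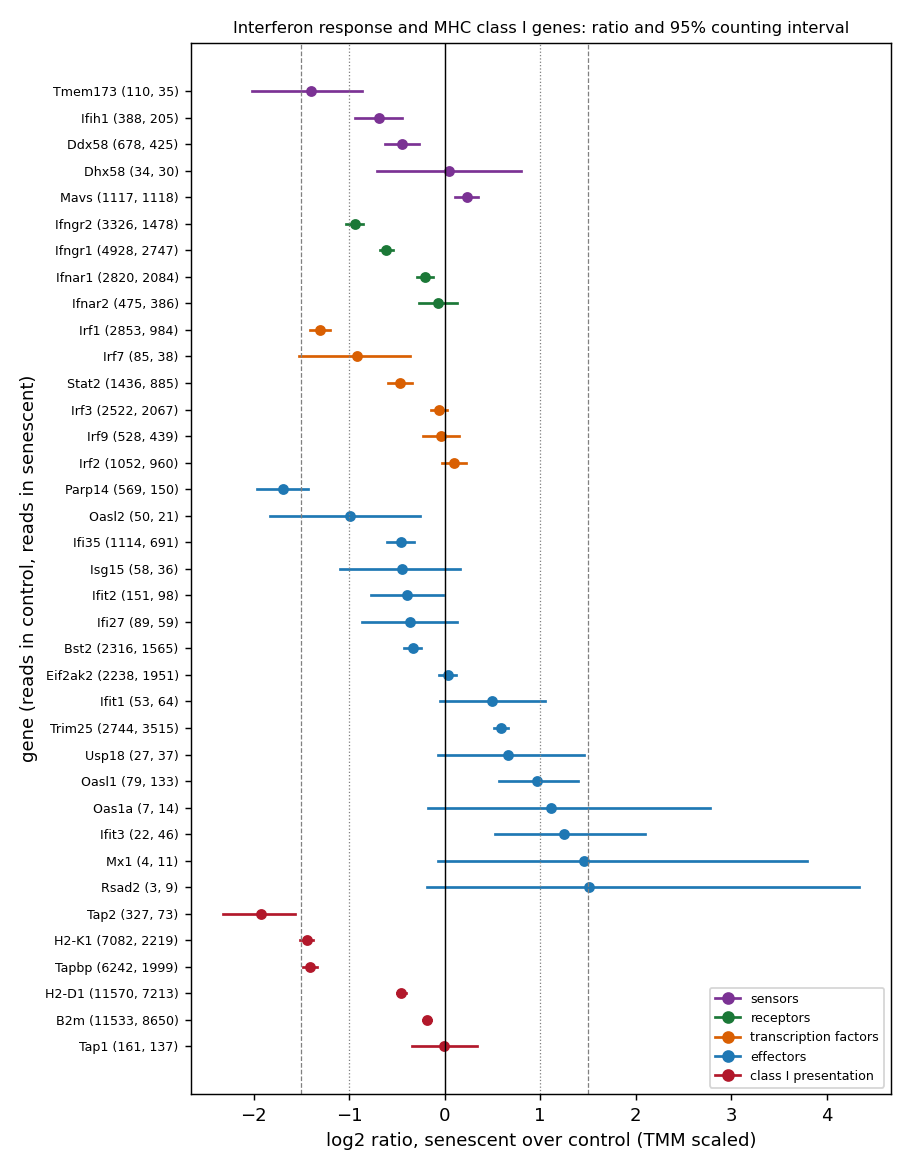
Log2 ratio of senescent over control (horizontal axis) for the 37 genes with at least 10 reads, coloured by role. The points are ratios, the bars 95% counting intervals, the numbers beside each symbol the reads in the control and the senescent library, and the dotted and dashed lines mark log2 1 and 1.5. The sensors, receptors, transcription factors and class I genes lie mostly at or left of 0, while the effectors run from Parp14 at -1.69 to Rsad2 at 1.51, the latter on 3 and 9 reads.

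Class I presentation was the role with the lowest median ratio, -0.93, and all 6 genes were below 0. The change was uneven along the pathway: 3 of the 6 genes, for a heavy chain, a TAP subunit and tapasin, were lower past log2 1, and the others were closer to the control. Of all tested genes 9.98% were lower past log2 1. Summed over the 6 genes, reads went from 36915 in control to 20291 in senescent cells, or from 1269 to 818 CPM (reads scaled by TMM to a common library size).

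The heavy chains H2-K1 and H2-D1 present the peptide to CD8 T cells. H2-K1 (ENSMUSG00000061232, minus strand of chromosome 17, 33996017 to 34000347) was counted 7082 times in control and 2219 times in senescent cells. Its ratio was -1.44 (interval -1.51 to -1.38), a 2.72-fold lower level, just short of the study's threshold and past it at -1.55 with total-count scaling. H2-D1 (ENSMUSG00000073411), which lies on the same chromosome from 35262730 to 35267499, gave 11570 control reads against 7213, a ratio of -0.45 (-0.49 to -0.41). The 2 heavy chains therefore differed from each other. There were 0.612 H2-K1 reads per H2-D1 read in control and 0.308 in senescent cells, a log2 change of -0.99 (Wald interval for counting error -1.07 to -0.91) that no scaling can alter. B2m, the invariant light chain on which every class I heavy chain depends, had 11533 and 8650 reads, a ratio of -0.19 (-0.23 to -0.15). Relative to B2m, H2-K1 went from 0.614 to 0.257 reads per read. Class I genes share sequence and vary between strains: 9.63% of the 50-base words of H2-K1 and 12.8% of those of H2-D1 recur in other genes, and the mm10 genome is that of C57BL/6J, not CD-1. The effect of this on the split of reads was not tested.

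TAP, the peptide pump, is made of the products of Tap1 and Tap2, and here the pair diverged. Tap2 (ENSMUSG00000024339, chromosome 17, 34203527 to 34216321) fell from 327 to 73 reads, a ratio of -1.92 (-2.32 to -1.56) or 3.79-fold, the lowest among the 37 genes. Tap1, which lies beside it, had 161 and 137 reads, a ratio of -0.0032 (-0.34 to 0.33). Within a library, Tap2 thus went from 2.03 to 0.533 reads per Tap1 read. Tapbp (ENSMUSG00000024308, chromosome 17, 33915899 to 33929292) encodes tapasin, which holds the empty heavy chain at TAP while peptide is loaded. It was counted 6242 times in control and 1999 times in senescent cells, a ratio of -1.41 (-1.49 to -1.34). Exons of 2 genes overlap Tapbp, those of 2 overlap Tap2 and those of 1 overlap Tap1. For each, the longest overlap is with a gene on the opposite strand. The longest overlaps are those of Gm19412 over 904 bases of Tapbp exons (221 and 77 reads), Gm15821 over 533 bases of Tap2 (9 and 0 reads) and Psmb9 over 212 bases of Tap1 (123 and 14 reads). Of the 50-base words, 23.2% of Tapbp, 11.6% of Tap2 and 3.33% of Tap1 recur in other genes. The use of strand in counting is not given in the sources used here, so reads of these overlaps cannot be told apart.

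In the stretch of chromosome 17 from Tapbp to H2-M3, 3.36 Mb long, genes with at least 100 reads over both libraries were compared. Of the 5 class I genes described above that lie there, 3 were lower past log2 1, as were 3 of the 4 further class I genes listed, Psmb9, H2-Q4 and H2-M3. H2-T22 had 92 and 48 reads (-0.70). Of the other 83 genes, 4 were lower and 5 higher, with a median of 0.015. These 83 include H2-DMa, of class II presentation, and the class I gene H2-T10 (331 and 170 reads, -0.73), which was on no list. The genes called among them are named after their values were seen. The lower ones were Gm19412, the antisense partner of Tapbp, the complement genes C4b (288 and 103 reads) and Cfb (802 and 280), and Ubd. Ubd, which encodes the ubiquitin-like modifier FAT10, had 169 control and 3 senescent reads, a ratio of -5.21 with a wide interval of -7.88 to -4.01. The higher ones were the heat shock genes Hspa1a (82 and 443 reads, 2.65) and Hspa1b (266 and 1227, 2.43), the collagen gene Col11a2 (89 and 224, 1.55), H2-DMa (58 and 120, 1.26) and Trim26 (2192 and 3829, 1.03).

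**Figure D2:**
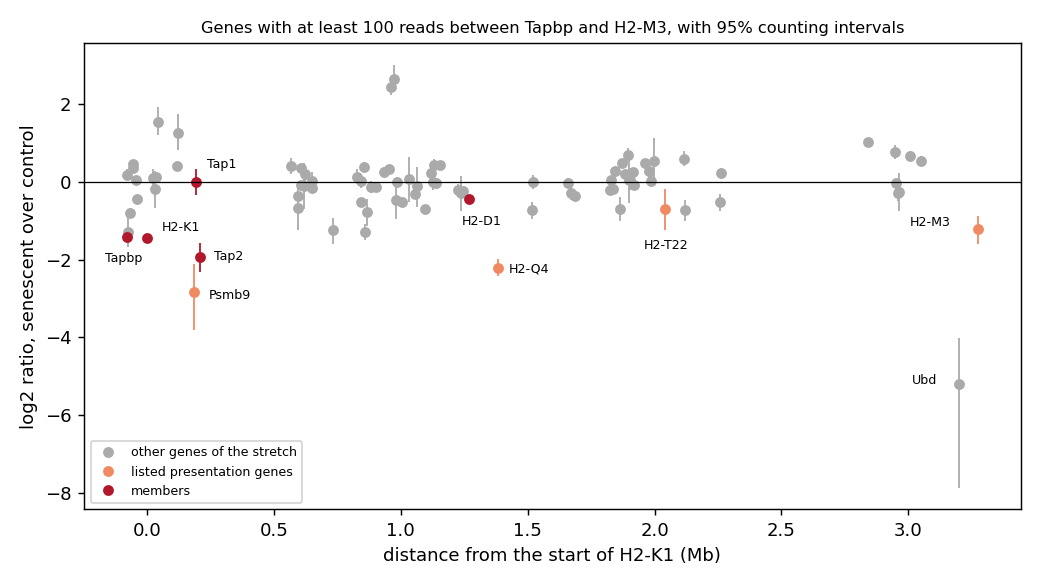
Log2 ratio of senescent over control (vertical axis) against distance from the start of H2-K1 in Mb, for the genes with at least 100 reads between Tapbp and H2-M3. Points are genes and bars 95% counting intervals, with members in red, listed class I genes in orange and other genes in grey. Tapbp, H2-K1, Tap2, Psmb9, H2-Q4 and H2-M3 lie below -1 among neighbours whose median is 0.015, while Tap1 and H2-D1 lie nearer to 0.

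Among the sensors, STING had the lowest ratio. Tmem173, which encodes STING, the adaptor that responds to cyclic dinucleotides made on cytosolic DNA, had 110 control and 35 senescent reads. The ratio was -1.40 (-2.01 to -0.86), lower past log2 1. The RNA helicase MDA5, encoded by Ifih1, had 388 and 205 reads (-0.69, interval -0.94 to -0.44), and RIG-I, encoded by Ddx58, had 678 and 425 (-0.44, interval -0.62 to -0.27). Dhx58, for the related helicase LGP2, had few reads, 34 and 30, and its interval of -0.71 to 0.80 held changes in either direction. Mavs, the mitochondrial adaptor through which the RNA helicases signal, had 1117 and 1118 reads and a ratio of 0.23 (0.11 to 0.35), the one sensor gene whose interval lay above 0. Set against Mavs within each library, Tmem173 went from 0.0985 to 0.0313 reads per read and Ifih1 from 0.347 to 0.183. In level, Mavs was the highest of the 5 in both libraries, at 11.5 and 13.5 RPKM (CPM per kilobase of exon), and Dhx58 the lowest, at 0.357 and 0.370 RPKM.

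No receptor chain passed log2 1 in either direction, but the chains for interferon gamma were further below the control than those for type I interferon. Ifngr1, the ligand-binding chain for interferon gamma, had 4928 and 2747 reads, a ratio of -0.61 (-0.68 to -0.55). Ifngr2, the signalling chain, had 3326 and 1478 reads, a ratio of -0.94 (-1.03 to -0.85) that became -1.05 when total counts set the scale. The type I chains lay nearer to 0. Ifnar1 had 2820 and 2084 reads (-0.21, interval -0.29 to -0.12) and Ifnar2 had 475 and 386 (-0.070, interval -0.27 to 0.13). Set against Ifnar1, Ifngr2 went from 1.18 to 0.709 reads per read, a log2 change of -0.73 (Wald interval -0.85 to -0.61), and Ifngr1 from 1.75 to 1.32 (-0.41, interval -0.51 to -0.30). Ifnar2 against Ifnar1 changed by 0.14, with an interval of -0.073 to 0.35. The order of levels was the same in both libraries, from Ifngr1 (59.5 and 38.9 RPKM) through Ifngr2 (30.4 and 15.8) and Ifnar1 (16.3 and 14.1) to Ifnar2 (4.91 and 4.68), although Ifngr2 and Ifnar1 had come close in senescent cells.

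Irf1 was the transcription factor that moved most. Irf1 (ENSMUSG00000018899, chromosome 11, 53770014 to 53778374), an activator of class I and TAP genes that interferon gamma itself induces through a GAS, had 2853 control and 984 senescent reads. Its ratio was -1.31 (-1.41 to -1.20), or 2.47-fold lower. Irf2, its antagonist at the same DNA sites, had 1052 and 960 reads, a ratio of 0.097 (-0.030 to 0.23). Irf1 reads per Irf2 read went from 2.71 to 1.025. Irf7, the amplifier of type I interferon genes, was scarce, with 85 and 38 reads (-0.92, interval -1.52 to -0.36). Irf3, the factor that sensors activate first, had 2522 and 2067 reads, and its ratio of -0.057 had an interval of -0.14 to 0.027. The STAT2 and IRF9 subunits of the factor that binds the ISRE differed from each other: Stat2 had 1436 and 885 reads (-0.47, interval -0.59 to -0.35), and Irf9 had 528 and 439 (-0.037, interval -0.22 to 0.15).

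The 18 effector genes were divided, with 7 of the 16 tested below 0 and 9 above. Their median of 0.26 rests on genes with few reads: among those with at least 100 reads over both libraries the median was -0.34. Summed, they had 9530 control and 8403 senescent reads, or 328 and 339 CPM. At least 1 RPKM was reached by 9 of the 18 in each library, and by 28 of all 39 genes in control and 26 in senescent cells.

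The effectors with the most reads were Trim25, Bst2, Eif2ak2, Ifi35 and Parp14. Trim25, a ubiquitin ligase that activates RIG-I, lay above the control with 2744 and 3515 reads (0.59, interval 0.51 to 0.66). Bst2, or tetherin, which holds budding viruses at the membrane, had 2316 and 1565 reads (-0.34, interval -0.43 to -0.24). Eif2ak2 encodes PKR, the kinase that stops translation on double-stranded RNA, and its 2238 and 1951 reads gave a ratio of 0.032 (-0.057 to 0.12). Ifi35 had 1114 and 691 reads (-0.46, interval -0.60 to -0.32). Parp14 (ENSMUSG00000034422, chromosome 16, 35832874 to 35871544) encodes an ADP-ribosyltransferase, and it fell from 569 to 150 reads. Its ratio of -1.69 (-1.96 to -1.43), 3.22-fold lower, was the single call among effectors at the study's threshold.

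The classical antiviral genes were scarce in both libraries and did not move together. Isg15, the ubiquitin-like modifier with 3 ISRE cores in the stretch shown above, had 58 and 36 reads, and its interval of -1.10 to 0.17 held 0. Ifit1 and Ifit2 encode proteins that bind foreign RNA or ribosomal factors. Ifit1 had 53 and 64 reads (0.49, interval -0.046 to 1.05), whereas Ifit2 had 151 and 98 (-0.39, interval -0.78 to -0.018). Ifit3, a partner of IFIT1, rose from 22 to 46 reads by the log2 1 threshold, with a ratio of 1.25 (0.53 to 2.10). Of its 50-base words 51.2% also occur in Ifit3b, which had 26 and 41 reads, so the division of reads between these copies is uncertain.

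The OAS family includes enzymes that make the oligoadenylate messenger for RNase L and relatives without that activity, and its members here lay on opposite sides of 0. Oasl1 had 79 control and 133 senescent reads (0.97, interval 0.57 to 1.40), while Oasl2 had 50 and 21 (-0.99, interval -1.83 to -0.26). Oas1a, which shares 57.6% of its words with Oas1g, was counted 7 and 14 times, and Oas2 0 times and once. Mx1, a GTPase that blocks influenza virus, had 4 and 11 reads, and Rsad2, which encodes viperin, had 3 and 9. The intervals of Oas1a, Mx1 and Rsad2 all held 0, and no direction was detectable at this depth. Usp18, the protease that removes ISG15, had 27 and 37 reads (0.66, interval -0.071 to 1.46). Ifi27 had 89 and 59 (-0.36, interval -0.86 to 0.13), and Ifi44, with 6 and 2, was under the minimum of 10.

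**Figure D3:**
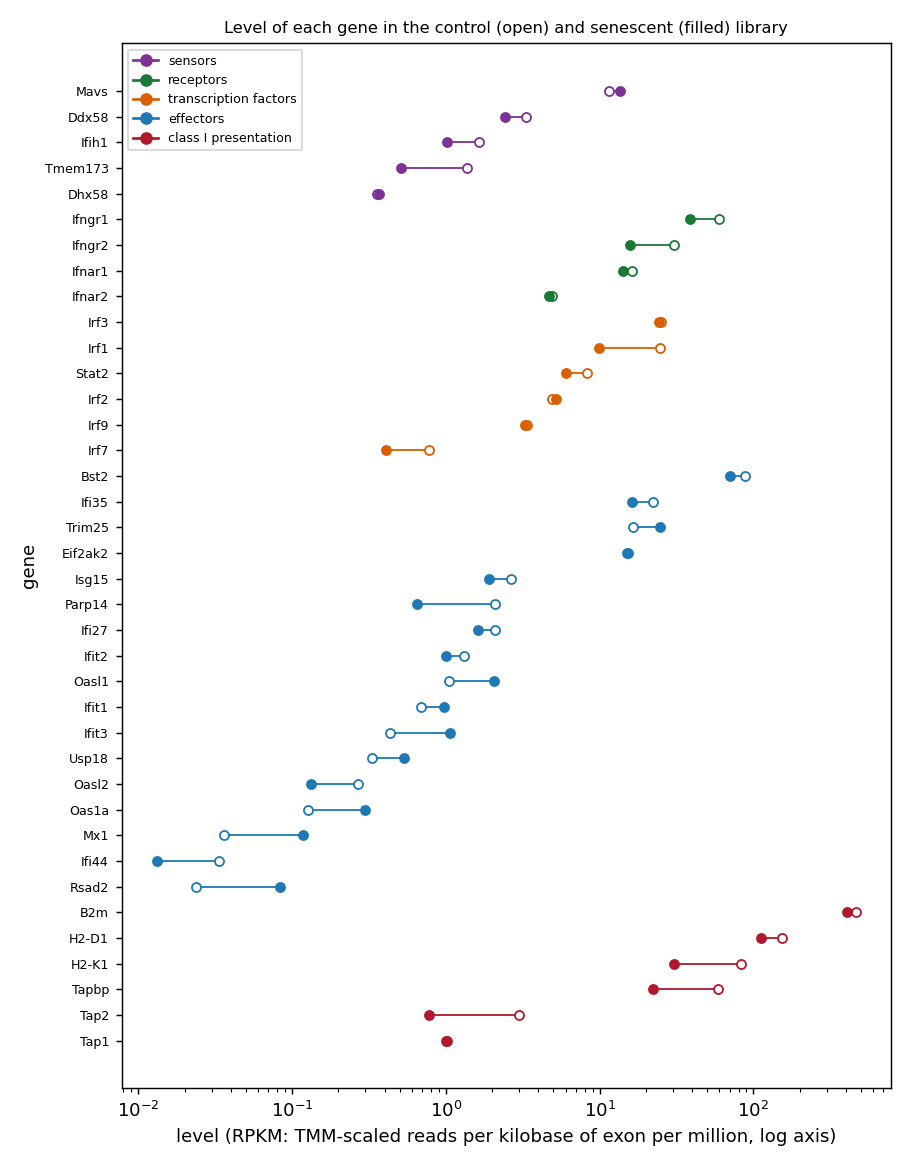
Level of each gene in RPKM (CPM per kilobase of exon, horizontal log axis), with open points for the control and filled points for the senescent library, 1 library each and no error bars. The 38 genes with reads in both libraries are shown by role. B2m leads at 461 and 406 RPKM, followed by H2-D1 at 154 and 113. Isg15 is at 2.64 and 1.92, and most other classical antiviral genes lie near or under 1 RPKM.

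Compared per exon length, the class I chains, tetherin and tapasin were among the best expressed of these genes, and the TAP subunits were far below them. B2m stood at 461 RPKM in control and 406 in senescent cells, H2-D1 at 154 and 113, and Bst2 at 88.2 and 69.9. H2-K1 went from 82.9 to 30.5 RPKM and Tapbp from 59.2 to 22.2. Tap2 went from 2.97 to 0.778 RPKM, and Tap1 was at 1.01 in each library. Tap2 was thus above Tap1 in control and below it in senescent cells. The senescent order rests on 73 Tap2 and 137 Tap1 reads and has no interval, so a turned order is not established.

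Among the genes with a promoter window, the letters did not sort the ratios in a simple way. Tap2, Parp14 and Tmem173, all lower past log2 1, had no window here and are not part of this comparison. The 12 tested genes with an ISRE core had a median ratio of -0.077 (range -0.69 to 1.51), and 0 were lower and 1 was higher past log2 1. The 18 tested genes with a window but without the core had a median of -0.42 (range -1.44 to 0.97), with 3 lower and 0 higher. Of all tested genes 9.98% were lower and 5.09% higher past log2 1, and counts this small do not set the groups apart. For GAS the medians were -0.21 with the motif and -0.44 without, and for κB -0.39 with and -0.070 without. H2-K1 and H2-D1, which carry the same κB letters in almost the same surroundings, had ratios of -1.44 and -0.45. These medians are descriptions with no test, and genes that share a motif also differ in read number.

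The ligands themselves were at or near 0. Of 10 interferon genes listed (types I, II and III), none had 10 reads. Ifne had 0 and 3 reads and Ifnl2 0 and 1, and the others were at 0, a count that allows up to 3 reads in a library. The receptor for interferon lambda and its kinases were present: of 6 such JAK-STAT genes none passed log2 1. Jak1, the kinase shared by all interferon receptors, had 5322 and 6600 reads (0.54, interval 0.49 to 0.59), and Tyk2, the partner kinase at IFNAR, had 1578 and 1330 (-0.017, interval -0.12 to 0.089). Jak2, a kinase at IFNGR2, had 5993 and 3208 reads (-0.67, interval -0.73 to -0.61). Ifnlr1, the lambda-specific chain, had 184 and 223 reads and Il10rb, its partner, 320 and 219.

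Around the sensors, 1 of 9 tested kinases, adaptors and factors was lower past log2 1, a share near the 9.98% of all tested genes. Ikbke encodes IKK epsilon, a kinase of IRF3 that inflammatory signals induce, and it had 5951 and 2128 reads (-1.25, interval -1.33 to -1.18). Its relative Tbk1 had 1590 and 1297 reads (-0.064, interval -0.17 to 0.042). Cgas, whose product makes the cyclic dinucleotide that STING senses, had 43 and 57 reads (0.62, interval 0.040 to 1.24), on the other side of 0 from Tmem173. With total counts the ratio of Cgas was 0.52. The lower end of its interval, 0.040, is smaller in size than the shift of -0.11 which that scaling brings, so its direction is uncertain. The RNA sensor Tlr3 had 403 and 273 reads (-0.33), and Irf8, a factor of myeloid cells, was at 0 in both.

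Of 8 inhibitors that limit the response, 1 was lower and 1 higher past the study's threshold, against 5.6% and 2.71% of all tested genes, and with 8 genes these single calls do not set the list apart. Socs1, the inhibitor of JAK kinases that interferon gamma induces, rose from 34 to 188 reads, a ratio of 2.66 (2.16 to 3.27). Tnfaip3, which encodes A20, a brake on NF-κB that NF-κB itself induces, fell from 4166 to 940 reads (-1.92, interval -2.02 to -1.82). Socs3 had 893 and 913 reads (0.26), and Nlrx1, a brake on MAVS, had 318 and 158 (-0.78).

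Of the further interferon-stimulated genes outside the 39, most lay below 0 (28 of 38). Of 38 tested, 8 were lower past the study's threshold (5.6% of all tested genes were) and 0 higher, and their median was -0.59. Ifitm3, which blocks virus entry, fell from 143 to 6 reads (-4.15, interval -5.82 to -3.19). Oas1c fell from 118 to 19. Ube2l6 (126 and 30 reads, -1.81) and Uba7 (643 and 157, -1.80) also fell, and these encode the conjugating and activating enzymes for ISG15.

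The interferon-induced GTPases, which attack the vacuoles of intracellular parasites, had a median of -1.42 over 11 tested genes. Past the study's threshold 5 were lower and 0 higher, against 5.6% and 2.71% of all tested genes. With at least 100 reads the median was -0.61. Ifi47 fell from 1149 to 145 reads (-2.75) and Gbp2 from 333 to 62 (-2.18), while Irgm1 had 2252 and 1154 (-0.73) and Irgm2 a ratio of -0.48. Gbp5 and Gbp6 were not analysed here.

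The genes around class I loading lay low as well. Among 11 genes of the immunoproteasome and of class I assembly, 4 were lower past the study's threshold, against 5.6% of all tested genes. Past log2 1, 6 were lower and 1 higher, against 9.98% and 5.09%, and the median was -1.17. Psmb9, a catalytic subunit of the immunoproteasome beside Tap1, fell from 123 to 14 reads (-2.83). Psmb10, another catalytic subunit, fell from 1881 to 428 (-1.90). Tapbpl, a tapasin relative that edits peptides, fell from 1169 to 345 (-1.53), and Erap1, the peptidase that trims peptides in the endoplasmic reticulum, went from 2593 to 927 reads (-1.25). The gene that was higher was Nlrc5, the class I transactivator, with 21 and 41 reads (1.15, interval 0.40 to 2.03). It was named after its value was seen.

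Among 8 tested genes for other class I or class I-like chains, all were below 0, 2 of them past the study's threshold and 5 past log2 1. Of all tested genes 5.6% and 9.98% were lower past these thresholds. Fcgrt, which encodes the neonatal Fc receptor for IgG and albumin, fell from 389 to 58 reads (-2.50), and H2-Q4, a nonclassical chain, fell from 1089 to 201 (-2.20). Hfe, whose product regulates iron uptake through hepcidin, had a ratio of -1.46, and H2-M3, which presents formylated peptides, had 242 and 88 reads (-1.22). How reads of similar class I genes were assigned was not tested.

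**Figure D4:**
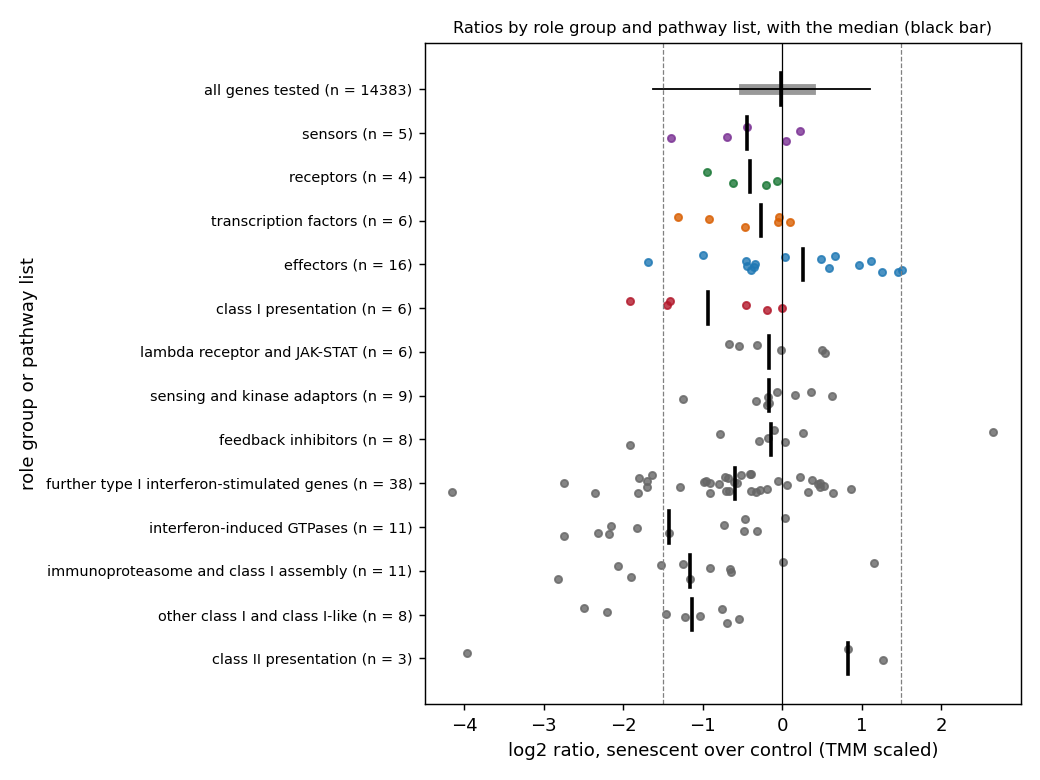
Log2 ratio of senescent over control for each tested gene (points) in the role groups and pathway lists, with a black bar at each median and dashed lines at log2 1.5. The grey bars for all tested genes span the 25th to 75th and the 5th to 95th percentiles. The medians run from -1.42 for the interferon-induced GTPases to 0.83 for the 3 tested class II genes, and class I presentation lies at -0.93 beside -0.015 for all genes.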

How the data were processed

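RNAseq of 2 AML12 libraries was used, 1 per condition, each of 3 pooled samples. The authors deposited raw counts per gene for both libraries in one table. The submitters' processing notes name CASAVA, STAR, DESeq2, edgeR and mm10 without role or version, and the counter, its annotation and its use of strand are not given in the sources used here. The columns were assigned by the initial of the label (Young, Old). Depth was 28021941 reads on 17403 genes (control) and 25738075 on 17592 (senescent).

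Of 35275 gene identifiers, 34490 matched a symbol in GENCODE M21 (GRCm38), which also gave positions and exon lengths. Genes without a symbol held 0.113% and 0.109% of reads. Counts were scaled by TMM (edgeR 4.0.16, R 4.3.3), with factors of 1.04 and 0.964. The ratio used a prior count of 1, and 14383 genes with at least 10 reads over both libraries were tested, with 95% Clopper-Pearson intervals (scipy 1.17.1). A call needed a ratio past log2 1.5 and an interval without 0. A threshold of log2 1 was also used. With no replicates there was no test across samples. Ratios of reads of 2 genes within a library have Wald counting intervals. Sequence shared between genes was measured as transcript words of 50 bases found in another gene, and promoters and their sequence came from RefSeq (GRCm38.p6). Scripts were tested on simulated data (Python 3.11.15, numpy 2.4.6, pandas 2.3.3, matplotlib 3.10.9).

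The 39 genes and the 9 pathway lists were chosen with earlier results of these data known. From each further list the text names up to 4 genes with the largest ratio among those with at least 100 reads, and any gene of a list of 10 or fewer, leaving out 1 gene that is not reported here. Of marker lists it names the genes with most reads and those at 0. Alternatives were DESeq2 1.42.0 size factors, total counts, upper quartile, a smaller prior count and one of 5, minimums of 1 and 100 reads, thresholds of log2 1 and 2, and assumed coefficients of variation of 0.1 and 0.4 between cultures.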

Additional observations from a re-analysis of the deposited data

How the results depend on the processing

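Each ratio rests on 1 library per condition, so variation between cultures was not measured, and the intervals cover counting error only. No paired analysis was possible because each condition had 1 library. With total counts 5 of the 39 genes were lower past log2 1.5, with H2-K1 at -1.55, Tapbp at -1.52 and Tmem173 added, and the medians moved to -0.52 for receptors and -1.04 for class I presentation. At a threshold of log2 1, 6 of the 39 were lower and 1 higher, with 1435 genes lower and 732 higher in all, and at log2 2 these were 0 of the 39 lower, 460 lower and 219 higher in all. With at least 100 reads, 395 genes were lower and 141 higher in all, the median of effectors turned to -0.34, and that of interferon-induced GTPases was -0.61. With at least 1 read the median of class II genes turned to -0.45. A prior count of 5 left 259 genes higher, and an assumed coefficient of variation of 0.4 left 243. The minimums and thresholds change by construction which genes are counted, the larger prior shrinks ratios and the assumed variation widens intervals. The cause of the scaling shift was not tested. DESeq2 size factors, upper quartile and the smaller prior count changed none of the 39 calls. The interferon genes gave no median, since none had 10 reads. Genes with few reads, such as Mx1 and Rsad2, are limited by depth.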

Other observations

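Class II presentation, which professional antigen-presenting cells use and interferon gamma can induce in other cells, was nearly silent in either library. Of the 7 genes listed, 3 had at least 10 reads. The chains H2-Aa and H2-Eb1 had 0 reads in both libraries, H2-Ab1 had 2 and 1, and Ciita, the class II transactivator, had 2 and 0. Cd74, the invariant chain, fell from 71 to 3 reads, a ratio of -3.97 with an interval of -6.65 to -2.73. H2-DMa, a chain of the peptide editor, rose from 58 to 120 reads by the log2 1 threshold (1.26, interval 0.81 to 1.76), and H2-DMb1, its partner, had 20 and 31 (0.83, interval 0.0049 to 1.75). Hence 1 of 3 tested genes was lower and 0 higher past log2 1.5, against 5.6% and 2.71% of all tested genes.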
